A study of Mus musculus with 13 samples.

Results

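The proteasome genes of activated mouse B cells were compared between cells lacking Whsc1 and WT cells. Members were the protein-coding rows of the deposited normalized count table whose symbol begins with Psma, Psmb, Psmc, Psmd, Psme, Psmf or Psmg and a number, without the 3 immunoproteasome subunits Psmb8, Psmb9 and Psmb10. The rule found 47 of the 47643 genes in the table. By role they are 7 alpha and 7 beta subunits of the core particle, 17 subunits of the regulatory particle, 7 assembly chaperones, 5 activators, the inhibitor Psmf1, and 2 core subunits known from testis (Psma8) and thymus (Psmb11). The last is Psmc3ip, a cofactor of homologous recombination that shares the letters of the name rule and is no proteasome subunit. Psma8 and Psmb11 were too low to test, at no more than 12.1 and 2.23 normalized counts in any library, which left 45 members among the 13947 genes tested. Each of these 45 was far above the filter in both groups, the lowest value being 127 normalized counts for Psmc3ip in a WT library.

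The Whsc1-KO group held 6 libraries and the WT group 7, and the submitters describe all 13 as independent biological replicates. Whsc1 encodes a histone methyltransferase, and embryos without it die, so the Whsc1-KO cells came from fetal liver of Whsc1-/- embryos and the WT cells from that of their littermates. Both were transplanted into lethally irradiated RAG1-KO mice, which make no lymphocytes of their own but keep other host cells, so the groups differ in the donor blood system and share the host. Splenic B cells on the C57BL/6 strain background were then enriched by depletion with anti-CD43 beads and cultured for 48 h with 25 µg/ml lipopolysaccharide (LPS), a bacterial stimulus that makes B cells divide. The labels give no ages and do not say whether a library holds 1 recipient. Poly-A RNA was read strand-specifically in pairs of 76 bases.

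The proteasome is the protease that degrades proteins tagged with ubiquitin. Its core is a barrel of alpha rings, which gate the entrance, around beta rings, which hold the active sites in Psmb5, Psmb6 and Psmb7. The regulatory particle caps the barrel: its lid and base bind and deubiquitinate the substrate, and the ATPase ring of the base unfolds it. In immune cells the 3 active subunits can be replaced by Psmb8, Psmb9 and Psmb10, and B cells that turn into antibody-secreting cells are known to be sensitive to proteasome load.

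Read totals in genes ran from 39101317 to 49443099 in Whsc1-KO and from 38881663 to 53019516 in WT libraries. The targeted gene Whsc1 had 4562 ± 624 normalized counts in Whsc1-KO and 6613 ± 718 in WT libraries (SD, n = 6 and 7), with no overlap and an adjusted p of 0.00049 by limma. A whole-gene count does not test the deletion, and RNA remained in every Whsc1-KO library. Whsc1-KO replicates 4 to 6 stood apart from replicates 1 to 3: the summed level of 12 cell division genes was 232200 to 236800 normalized counts in replicates 4 to 6 and 147600 to 157400 in replicates 1 to 3, against 93990 to 141400 in WT libraries. B cell markers were present throughout, but their sum over 6 genes was 223100 to 299500 in Whsc1-KO and 338400 to 394200 in WT libraries, with 4 of 6 genes lower by limma. In bulk RNA, fewer cells of a type and less of its RNA per cell cannot be told apart. Myeloid markers, 5 of 6 tested higher, summed to 3206 to 17770 in Whsc1-KO and 1693 to 3918 in WT libraries, with Elane at 0 in all libraries. Erythroid markers, 4 of 5 tested higher, summed to 2577 to 194400 in Whsc1-KO and 866 to 3324 in WT libraries, and both lists were highest in replicates 4 to 6. Plasmablast markers, 2 of 5 higher, summed to 73960 to 172500 in Whsc1-KO and 61420 to 162900 in WT libraries. T and NK markers summed to 791 to 1036 in Whsc1-KO and 555 to 982 in WT libraries, and 7 of the 8 were below the filter.

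Proteasome subunits were higher in Whsc1-KO B cells, in both the core and the regulatory particle. The core rose in 13 of 14 subunits and the regulatory particle in 15 of 17, by 1.33-fold and 1.44-fold at the median of the ratios of group means. Of all 45 tested members 36 rose and 2 fell at an adjusted p of 0.05, by limma on log2(normalized count + 1). Over all 13947 genes 26.1% were called higher and 25.7% lower, so a call in either direction was common in this comparison. Over the members the log2 fold changes had a median of 0.39, and over all genes tested -0.003. Without Psmc3ip the count was 35 of 44 higher. The authors' deposited table gives the same 36 members as higher and the same 2 as lower. On the recovered reads, edgeR and DESeq2 each made the same 36 and 2 calls, while calling 26.6% and 27.7% of all genes higher and 24.9% and 26.5% lower.

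**Figure D1:**
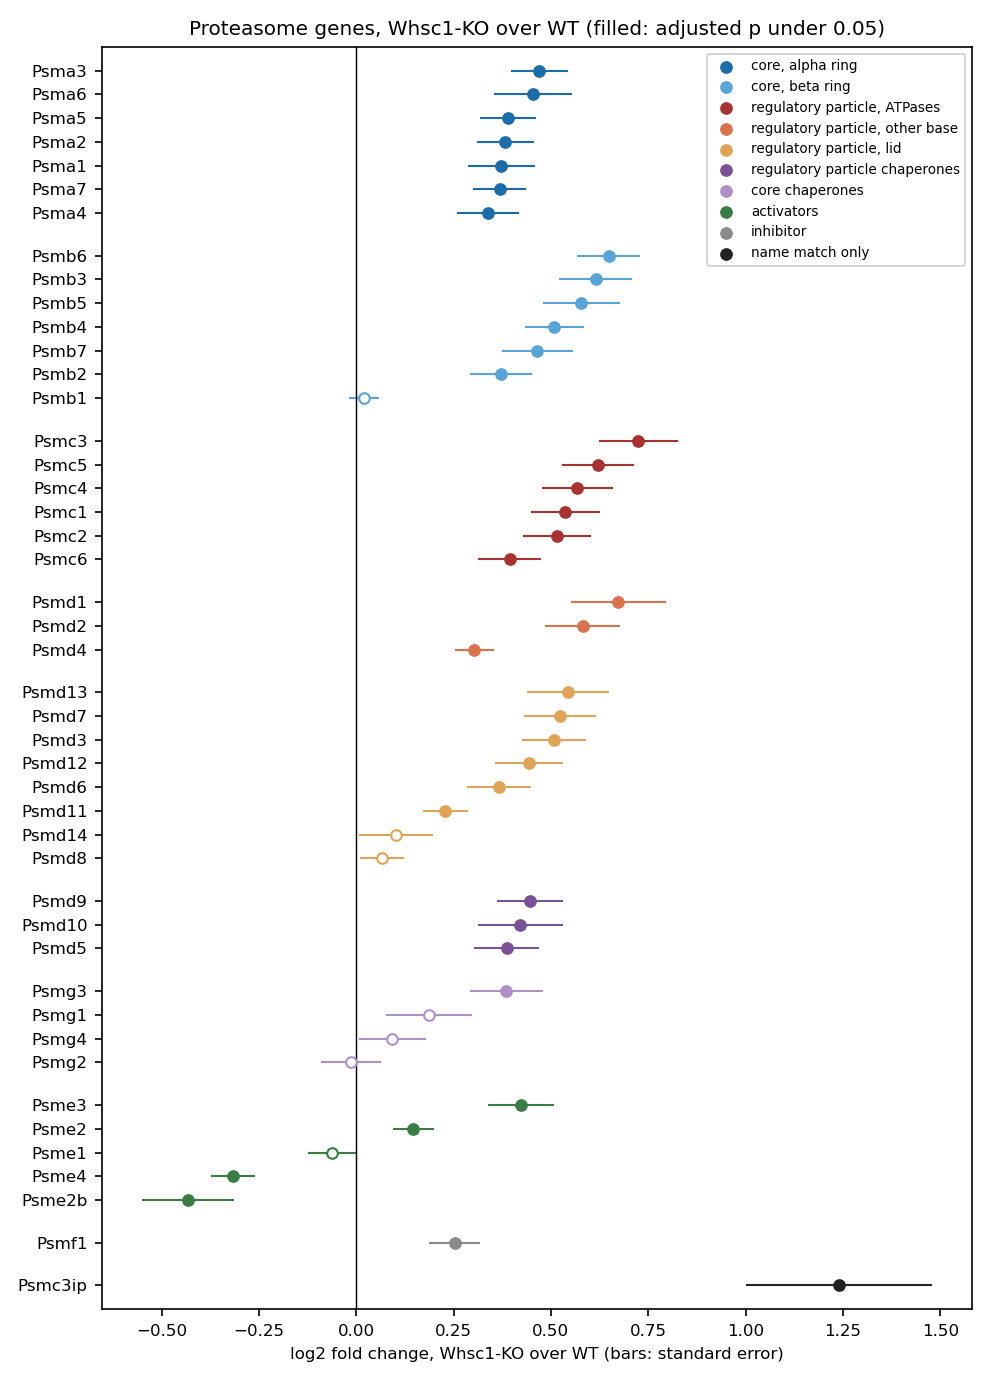
Log2 fold change, Whsc1-KO over WT, of the 45 tested members grouped by role, with bars of 1 standard error and filled points for adjusted p under 0.05. The 13 core and 15 regulatory particle subunits that rose lie between 0.23 and 0.73, while Psmb1, Psmd14 and Psmd8 lie near 0 and Psme4 and Psme2b lie below it.

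The alpha subunits, which form the outer rings and the gate, all rose, by 0.34 to 0.47 on the log2 scale. Psma3 showed the largest of these changes, with 5317, 5769 and 6467 normalized counts (lowest, median, highest) in Whsc1-KO libraries and 3735, 4118 and 5079 in WT libraries. All Whsc1-KO libraries of Psma3 were above all WT libraries, and the log2 fold change was 0.47 (SE 0.073, adjusted p 0.000251, limma). Psma6 had the highest level per length of all core subunits, at 7280 normalized counts per kb of exon in Whsc1-KO and 5357 in WT libraries. Its counts overlapped, at 7673, 8989 and 9932 in Whsc1-KO libraries and 5226, 6127 and 8056 in WT libraries, with a log2 fold change of 0.45 (SE 0.1, adjusted p 0.0022). The smallest alpha change was that of Psma4, whose 4951, 5486 and 6588 in Whsc1-KO libraries overlapped the 3855, 4521 and 5274 in WT libraries (adjusted p 0.00309). Psma3 and Psma7, which had 4635, 5247 and 5896 in Whsc1-KO libraries and 3651, 4131 and 4430 in WT libraries, were the alpha subunits without overlap between the groups.

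The beta subunits divided into 6 that rose, by 0.37 to 0.65, and Psmb1, which did not. Psmb6, the subunit with the caspase-like site, had 3265, 3816 and 4314 normalized counts in Whsc1-KO libraries against 2094, 2460 and 2795 in WT libraries. Its lowest Whsc1-KO library was above every WT library, and its log2 fold change of 0.65 (SE 0.081, adjusted p 4.85e-05, limma) was the largest of the core. Psmb5, which carries the chymotrypsin-like site, had 2875, 3789 and 4605 in Whsc1-KO libraries and 2151, 2477 and 2665 in WT libraries. The groups did not overlap, and the log2 fold change was 0.58 (SE 0.099, adjusted p 0.000466). Psmb7, with the trypsin-like site, had 4012, 4654 and 5239 in Whsc1-KO libraries and 2787, 3341 and 4232 in WT libraries, where the highest WT library passed the lowest Whsc1-KO one (log2 fold change 0.47, SE 0.091, adjusted p 0.000981). The structural subunits Psmb3 and Psmb4 rose without overlap, by 0.62 and 0.51. Psmb3 had 3838, 4860 and 5505 in Whsc1-KO libraries and 2737, 3212 and 3798 in WT libraries, and Psmb4 had 6726, 7924 and 8436 in Whsc1-KO libraries and 4783, 5411 and 6112 in WT libraries. Psmb2 rose by 0.37 with overlap.

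Psmb1 is a structural beta subunit of the same ring. It had 7232, 7644 and 7783 normalized counts in Whsc1-KO libraries and 7205, 7504 and 7851 in WT libraries, so the ranges nearly coincided. Its log2 fold change was 0.02 (SE 0.038, adjusted p 0.688, limma), the smallest standard error among the core subunits. Within replicates 4 and later, where the other 13 core subunits rose by 0.49 to 0.86, that of Psmb1 was 0.03 (adjusted p 0.593).

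**Figure D2:**
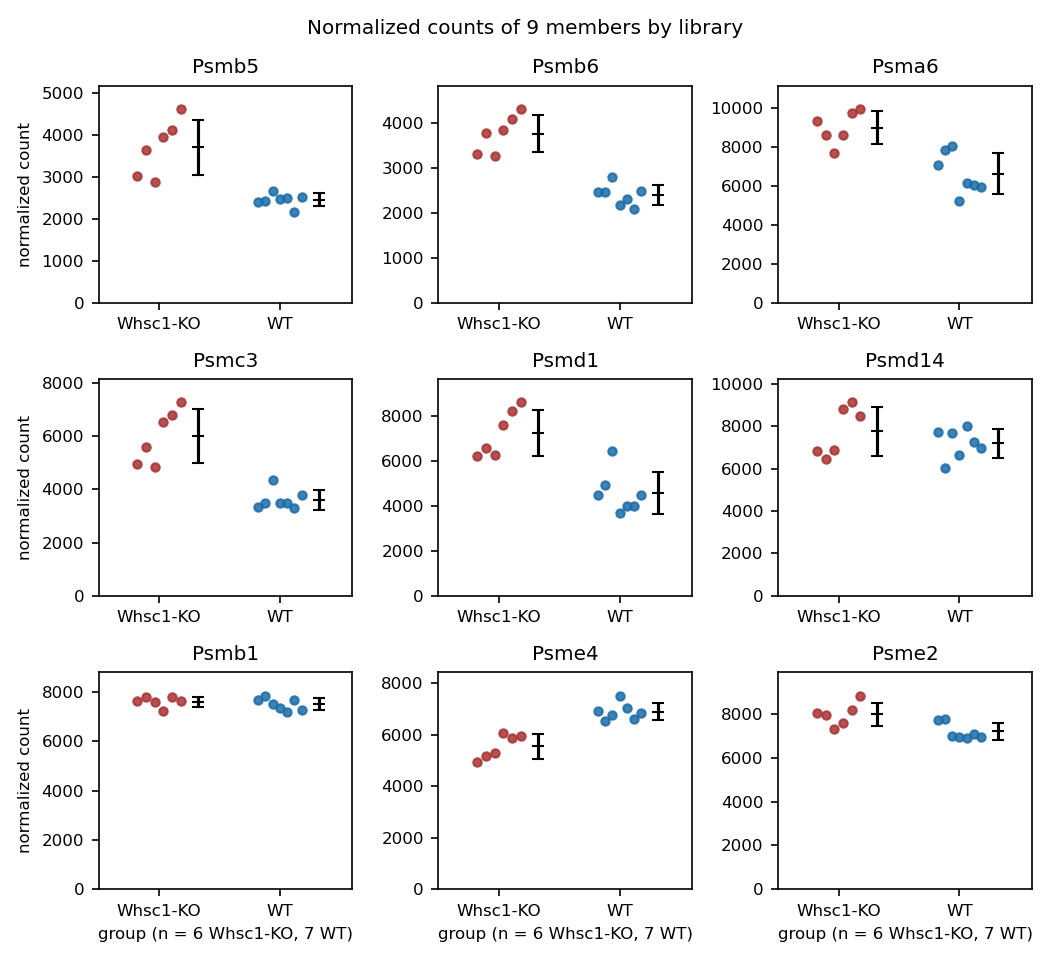
Normalized counts of 9 members in each library, Whsc1-KO left of WT, with the mean and SD beside the points. Psmb5, Psmb6 and Psmc3 show no overlap upward and Psme4 none downward. Psmb1 overlaps throughout, and WT replicate 3 reaches the Whsc1-KO range for Psmd1. Psmd14 overlaps in part, with Whsc1-KO replicates 4 to 6 above all WT libraries.

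The constitutive active subunits were compared with their immunoproteasome counterparts, which were near level between the groups. Psmb8 had 11106, 11710 and 13758 normalized counts in Whsc1-KO libraries and 10785, 11310 and 11890 in WT libraries, with a log2 fold change of 0.08 (adjusted p 0.214, limma). Psmb9 and Psmb10 had log2 fold changes of -0.02 (adjusted p 0.814) and 0.004 (adjusted p 0.972). The direction of Psmb9 and Psmb10 was not stable, and both changed sign under some alternatives. Scaled by exon length, the ratio of Psmb6 to Psmb9 was 0.838, 0.954 and 1.19 in Whsc1-KO libraries and 0.484, 0.627 and 0.749 in WT libraries. For Psmb5 to Psmb8 it was 0.974, 1.17 and 1.3 in Whsc1-KO libraries against 0.683, 0.822 and 0.886 in WT libraries. Psmb7 to Psmb10 gave 0.779, 0.943 and 1.08 in Whsc1-KO libraries and 0.545, 0.67 and 0.82 in WT libraries. The first and second ratios separated the groups in every library, and the third overlapped. These ratios were formed after the values of the single genes had been seen and were not tested. Their size depends on the exon lengths, which are unions over annotated transcripts, at 0.899 kb for Psmb5 and 3.381 kb for Psmb8. They compare the groups and do not show which subunit of a pair had more RNA.

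All 6 ATPases of the base, which form the unfolding ring, rose by 0.39 to 0.73. Psmc3 had 4838, 6059 and 7260 normalized counts in Whsc1-KO libraries and 3280, 3480 and 4332 in WT libraries. The groups were apart in every library, and the log2 fold change of 0.73 (SE 0.101, adjusted p 0.000115, limma) was the largest of any subunit. Psmc5 followed, with 4257, 4942 and 5746 in Whsc1-KO libraries and 2837, 3099 and 4110 in WT libraries (log2 fold change 0.62, SE 0.093, adjusted p 0.000185), also without overlap. Psmc4 and Psmc2 did not overlap either, while 1 WT library of Psmc1 and 2 of Psmc6 lay above the lowest Whsc1-KO library. Psmc4 had 4169, 5214 and 5861 in Whsc1-KO libraries against 3040.4, 3288 and 4042 in WT libraries, and Psmc2 had 3654, 4508 and 5136 in Whsc1-KO libraries against 2755, 3107 and 3622 in WT libraries. The level of Psmc2 per length was 887 normalized counts per kb of exon in Whsc1-KO and 617 in WT libraries, the lowest of the regulatory particle in WT.

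The other 3 base subunits also rose. Psmd1, a scaffold of the base, had 6221, 7081 and 8588 normalized counts in Whsc1-KO libraries and 3681, 4493 and 6439 in WT libraries. The highest WT value came from replicate 3 and was alone in reaching the Whsc1-KO range, and the log2 fold change was 0.67 (SE 0.122, adjusted p 0.000637, limma). Psmd2, the other scaffold, which docks shuttle factors, had 10187, 13020 and 14996 in Whsc1-KO libraries and 7773, 8421 and 10095 in WT libraries. The ranges nearly touched but did not overlap (log2 fold change 0.58, SE 0.096, adjusted p 0.000345). Psmd4, a ubiquitin receptor, rose by 0.3 without overlap, with 4246, 4646 and 5030 in Whsc1-KO libraries and 3521, 3713 and 3984 in WT libraries (adjusted p 0.000367).

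In the lid, which positions and deubiquitinates the substrate, 6 of 8 subunits rose, by 0.23 to 0.54. Psmd13 changed most, with 3387, 4402 and 5299.7 normalized counts in Whsc1-KO libraries and 2695, 2895 and 3484 in WT libraries (log2 fold change 0.54, SE 0.105, adjusted p 0.000931, limma). Psmd3, with 5125, 6275 and 7273 in Whsc1-KO libraries and 3994, 4183 and 4904 in WT libraries, and Psmd12, with 3272, 3754 and 4467 in Whsc1-KO libraries and 2592, 2767 and 3227 in WT libraries, were the lid subunits without overlap. Psmd7, Psmd6 and Psmd11 rose with overlap, by 0.52, 0.37 and 0.23. Psmd14, the deubiquitinase of the lid, did not pass: it had 6436, 7669 and 9124 in Whsc1-KO libraries and 6013, 7270 and 8009 in WT libraries, with a log2 fold change of 0.1 (SE 0.095, adjusted p 0.382). Its value was -0.08 within replicates 1 to 3 and 0.28 within replicates 4 and later (adjusted p 0.63 and 0.00681). Psmd8, a structural lid subunit, had 8446, 8860 and 9719 in Whsc1-KO libraries and 7409, 8648 and 9290 in WT libraries (log2 fold change 0.07, SE 0.057, adjusted p 0.352), and its level per length was 2937 normalized counts per kb of exon in Whsc1-KO and 2810 per kb in WT libraries, the highest of the regulatory particle in WT.

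All Whsc1-KO libraries were above all WT libraries in 15 members, namely 6 core subunits, 8 regulatory particle subunits and Psmc3ip, and below all of them in 1, Psme4. Over all genes tested these shares were 9.03% and 10.2%. WT replicate 3 was the highest WT library in 28 of the 31 subunits, a place it took in 19.8% of all genes tested. Without WT replicate 3, a step chosen after the values were seen, 26 of the 31 subunits had every Whsc1-KO library above every WT library, against 13.3% of all genes. Among Whsc1-KO libraries replicate 6 was the highest in 26 of the 31 subunits and replicate 3 the lowest in 20. The shares of all genes with these orders were not counted, so neither order can be called particular to the subunits.

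**Figure D3:**
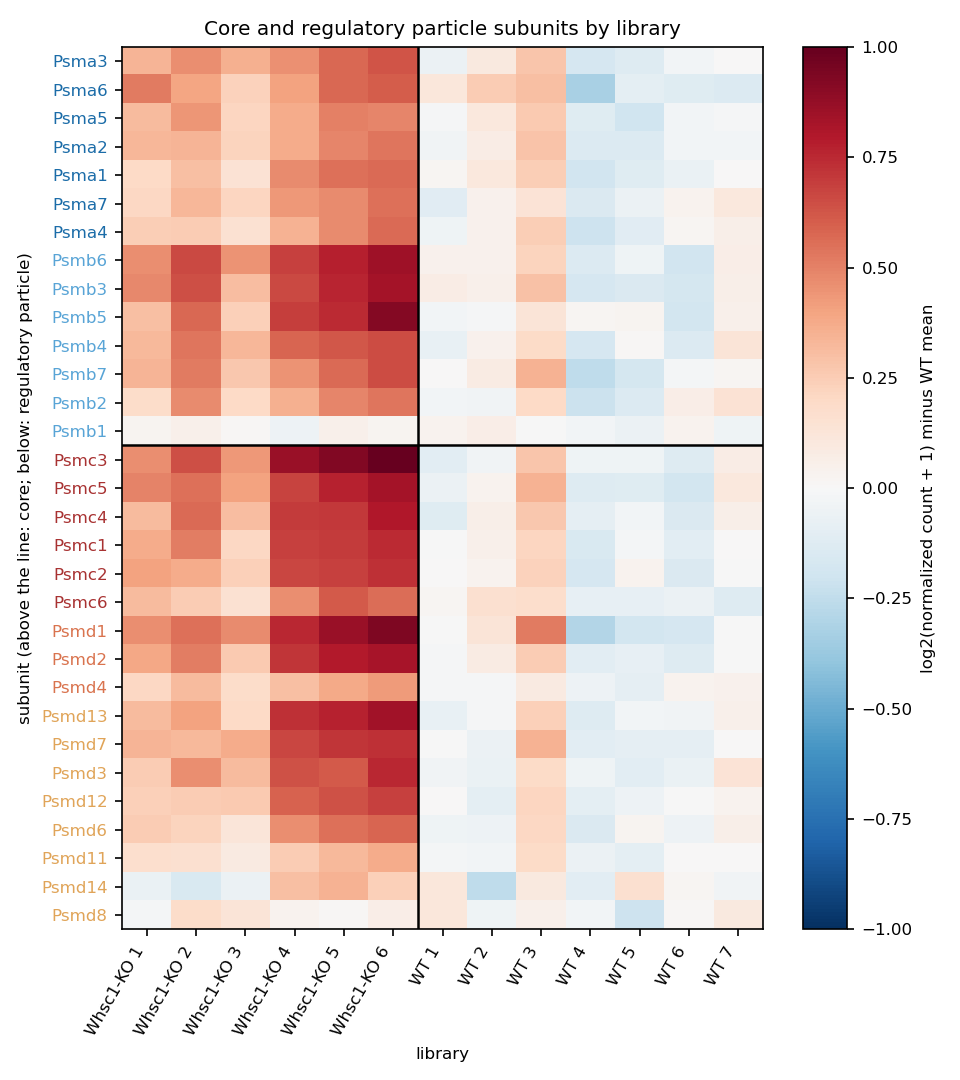
Log2(normalized count + 1) of the 31 core and regulatory particle subunits in each library, minus the WT mean of the gene, Whsc1-KO libraries left of WT libraries. Whsc1-KO replicates 4 to 6 are all above replicates 1 to 3 in 23 of the 31 subunits, an order whose share over all genes was not counted. WT replicate 3 is the highest WT library in 28, and Psmb1, Psmd14 and Psmd8 stand out as pale rows.

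The core and the regulatory particle rose by similar amounts. The mean log2 fold change was 0.43 over the 14 core subunits and 0.45 over the 17 of the regulatory particle, a difference of -0.026. The 2 means moved together from library to library. The mean log2 level of the core, relative to the WT mean, was 0.24 to 0.43 in Whsc1-KO replicates 1 to 3 and 0.45 to 0.6 in replicates 4 to 6, against -0.16 to 0.22 in WT libraries. For the regulatory particle it was 0.24 to 0.36 and 0.56 to 0.66 in the same Whsc1-KO libraries, against -0.11 to 0.23 in WT libraries. The upper end in WT was replicate 3 in both cases.

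The core level minus that of the regulatory particle was 0.036, 0.085 and 0.019 in Whsc1-KO replicates 1 to 3 and -0.095, -0.047 and -0.036 in replicates 4 to 6, against -0.033 to 0.095 in WT libraries. Whsc1-KO replicates 4 to 6 lay below the WT range, and replicates 1 to 3 inside it. Without replicates 4 to 6 the difference between the mean log2 fold changes was 0.027. The direction of the difference thus rested on those libraries, and no p is given for it.

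**Figure D4:**
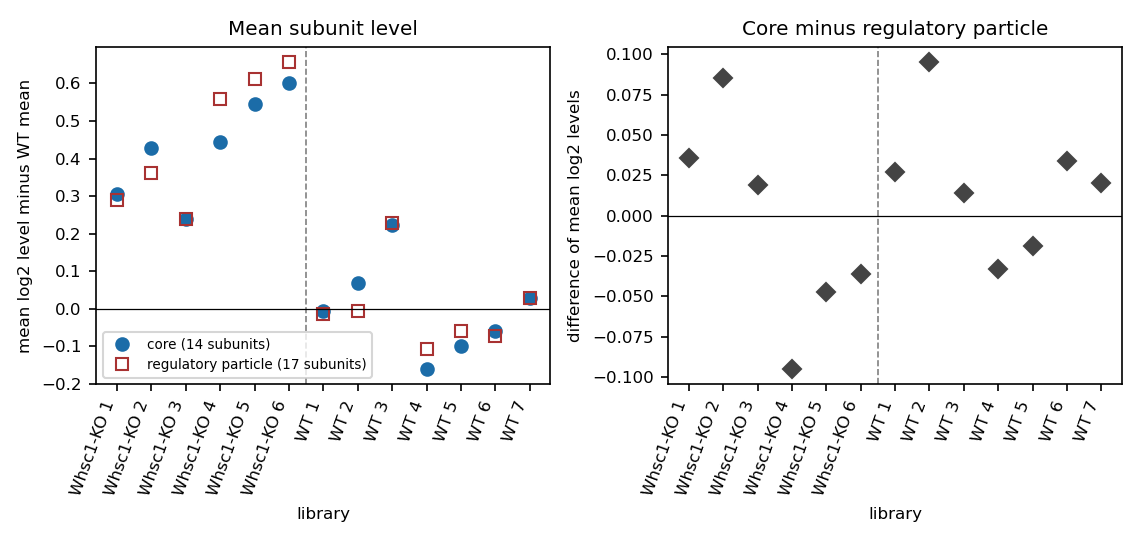
Left, mean log2 level of the 14 core and 17 regulatory particle subunits in each library minus the WT mean; right, core minus regulatory particle, Whsc1-KO libraries left of WT libraries in both. Both means are 0.24 to 0.66 in Whsc1-KO libraries and -0.16 to 0.23 in WT libraries, and the difference is negative in Whsc1-KO replicates 4 to 6 only among the Whsc1-KO libraries.

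Counts and medians are also given by set of libraries, and the difference between sets was not tested. Without Whsc1-KO replicates 4 to 6, 28 members were higher and 1 lower, where 14% and 15.6% of all genes were called, and 11 core and 13 regulatory particle subunits were higher. The subunits whose calls were lost in that set were Psma1, Psma4, Psmd6 and Psmd11 (adjusted p 0.0807, 0.0694, 0.0602 and 0.109, limma). Within replicates 1 to 3 of both groups, 3 members were higher (Psmb4, Psmb6 and Psmc3) and 1 lower (Psme4), where 6.79% of all genes were called higher and 8.76% lower, so the share of members called higher was near that of all genes. There the members' log2 fold changes still had a median of 0.21, against 0.001 over all genes. Within replicates 4 and later, 38 were higher and 2 lower, against 30% and 30.1% of all genes, with a median of 0.63. By class, the median within replicates 4 and later was 0.55 for alpha, 0.67 for beta, 0.78 for ATPase and 0.62 for lid subunits. Within replicates 1 to 3 it was 0.19 for alpha, 0.34 for beta, 0.31 for ATPase and 0.19 for lid subunits. With WT replicate 3 and Whsc1-KO replicates 4 to 6 all left out, a set chosen after seeing the data, 32 were higher and 1 lower, against 16% and 17.2% of all genes, with 13 core and 15 regulatory particle subunits higher.

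The order of libraries in the subunits resembled that in the 12 cell division genes, all of which were higher. The mean log2 level of that list, relative to the WT mean, was 0.36 to 0.51 in Whsc1-KO replicates 1 to 3 and 1.08 to 1.16 in replicates 4 to 6, against -0.32 to 0.37 in WT libraries, where replicate 3 was again the highest. In Whsc1-KO replicates 4 to 6 the B cell sum was lower, and the myeloid and erythroid sums higher, than in Whsc1-KO replicates 1 to 3. The order of these sums among WT libraries was not compared. The part of dividing cells, of other cell types and of RNA content per cell in the rise of the subunits was not tested. By Xist and Y-linked genes, Whsc1-KO replicates 1 to 3 were male and WT replicates 1 to 3 female, so sex and genotype cannot be told apart within replicates 1 to 3. WT replicates 4 and 5 were also female and WT replicates 6 and 7 male. The sets without Whsc1-KO replicates 4 to 6 thus set only male Whsc1-KO libraries against mostly female WT libraries. With a sex score in the fit over all libraries, all 45 members kept their call.

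Of the 7 assembly chaperones 4 were called, all higher, where 26.1% of all genes were called higher. The 3 chaperones of the regulatory particle base, Psmd5, Psmd9 and Psmd10, all rose, by 0.39 to 0.45. Psmd9 had 1020, 1171 and 1388 normalized counts in Whsc1-KO libraries and 765, 852 and 1032 in WT libraries (SE 0.084, adjusted p 0.000774, limma), with overlap of single libraries. Of the 4 core chaperones only Psmg3 passed, with 578, 725 and 861 in Whsc1-KO libraries and 520, 547 and 599 in WT libraries (log2 fold change 0.39, SE 0.094, adjusted p 0.00386). Psmg1, Psmg2 and Psmg4 had log2 fold changes of 0.19, -0.01 and 0.09 (adjusted p 0.173, 0.9 and 0.388), and Psmg2 changed sign under several alternatives. Without Whsc1-KO replicates 4 to 6 the calls of Psmg3 and Psmd10 were lost, at 0.19 and 0.21 (adjusted p 0.1 and 0.103). Whether the chaperone classes differ was not tested.

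Activators, which cap the core in place of the regulatory particle, moved in both directions. Psme3, which forms the nuclear activator ring, had 7878, 9039 and 11029 normalized counts in Whsc1-KO libraries and 6066, 6677 and 8195 in WT libraries. It rose by 0.42 (SE 0.085, adjusted p 0.00118, limma) with overlap. Psme4, a large nuclear activator of a single chain, was the opposite, with 4927, 5591 and 6061 in Whsc1-KO libraries and 6531, 6865 and 7522 in WT libraries. Every Whsc1-KO library was below every WT library, and the log2 fold change was -0.32 (SE 0.057, adjusted p 0.000625).

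Among the Whsc1-KO libraries Psme4 was also higher in replicates 4 to 6, at 5884 to 6061 normalized counts, than in replicates 1 to 3, at 4927 to 5297, but its call held in each set of libraries. Its log2 fold change was -0.39 within replicates 1 to 3 (adjusted p 0.00665), -0.23 within replicates 4 and later (adjusted p 0.00629) and -0.43 with Whsc1-KO replicates 4 to 6 left out (adjusted p 0.000323). The gene lies at chr11:30771726-30880361 on the plus strand (GRCm38) and has the longest span of the tested members, 109 kb, where the members' median span was 12.4 kb and that of all protein-coding genes tested 23.2 kb.

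The interferon-inducible activator subunits Psme1 and Psme2 changed little. Psme1 had 7849, 8757 and 9639 normalized counts in Whsc1-KO libraries and 8359, 8928 and 10489 in WT libraries (log2 fold change -0.06, adjusted p 0.407). Psme2 was higher by 0.15 (SE 0.052, adjusted p 0.0285), a call that was lost without any one of 6 single libraries, WT replicates 4, 5, 6 and 7 and Whsc1-KO replicates 5 and 6 (adjusted p 0.0501 to 0.0727). Psme2b, a copy of Psme2 whose exons fill its whole span, had 396, 515 and 655 in Whsc1-KO libraries and 639, 676 and 866 in WT libraries and fell by 0.43 (adjusted p 0.00737). That call was lost without Whsc1-KO replicates 4 to 6, at -0.22 (adjusted p 0.151), and within replicates 1 to 3, at -0.14 (adjusted p 0.415), and the call of Psme2 was lost in both sets too. Estimated counts can split reads between such copies, so the values of Psme2 and Psme2b are uncertain. The inhibitor Psmf1 rose by 0.25, with 1440, 1580 and 1849 in Whsc1-KO libraries and 1274, 1353 and 1454 in WT libraries (SE 0.066, adjusted p 0.00563), which was 0.14 (adjusted p 0.109) without Whsc1-KO replicates 4 to 6. Psmc3ip had the largest change of all matches, 346, 547 and 758 in Whsc1-KO libraries and 127, 234 and 319 in WT libraries (log2 fold change 1.24, SE 0.239, adjusted p 0.000914).

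Promoters are shown because the subunits moved together. RefSeq windows of 300 bases, from 250 before to 50 after a start site (GRCm38.p6), were at hand for 39 of the 47 members, as 42 windows. Each was searched on both strands for 4 motifs. The ETS site was spelled CCGGAAG. The E-box was spelled CACGTG, and the CCAAT box by the letters of its name. The core of the antioxidant response element, through which Nfe2l1 and Nfe2l2 act on proteasome genes, was spelled TGACNNNGC. Of 54 matches in the members' windows, 0 pairs of matches to different motifs shared a base. The ETS site matched 10 of 15 regulatory particle windows (66.7%) and 1 of 12 core windows (8.33%), against 17.8% of 11716 windows of protein-coding genes tested and 8.86% of all 32851 windows. The CCAAT box matched 4 of 15 regulatory particle windows (26.7%) and 6 of 12 core windows (50%), against 38.1% of windows of tested genes. The antioxidant element matched 2 regulatory particle windows (13.3%) and 2 core windows (16.7%), against 14.5% of windows of tested genes, and the E-box 0 regulatory particle windows and 1 core window (8.33%), against 10%.

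The 60 bases directly before the RefSeq start site are given for the 5 regulatory particle genes whose ETS match lies inside them, in a window whose bases after the start match an annotated transcript. Capitals mark the match, which on the strand shown reads CCGGAAG or its reverse complement CTTCCGG. The coordinates are chr12:100110142-100110201 for Psmc1, chr16:20651592-20651651 for Psmd2, chr11:80428555-80428614 for Psmd11 and chr11:107479468-107479527 for Psmd12, all on the plus strand, and chr14:14120946-14121005 on the minus strand for Psmd6. In GENCODE M21 some genes begin inside these stretches, at 100110154 for Psmc1 and 107479484 for Psmd12. The matches of Psmc1 and Psmd12 thus lie inside the annotated gene, and that of Psmd6 reaches its first base.
Psmc1: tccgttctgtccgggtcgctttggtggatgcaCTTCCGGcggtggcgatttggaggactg
Psmd2: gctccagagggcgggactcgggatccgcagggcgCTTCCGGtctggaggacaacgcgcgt
Psmd11: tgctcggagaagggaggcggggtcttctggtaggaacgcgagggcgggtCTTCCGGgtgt
Psmd12: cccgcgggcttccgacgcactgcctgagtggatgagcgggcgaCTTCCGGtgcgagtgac
Psmd6: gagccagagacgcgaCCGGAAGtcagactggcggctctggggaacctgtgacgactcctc

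For the core, the same stretch is given for the active subunits Psmb5 (chr14:54617996-54618055, minus strand) and Psmb6 (chr11:70525297-70525356, plus strand), the only 2 of the 11 core genes with a window that held the antioxidant element core, which is in capitals. It begins 47 bases before the start site in Psmb5 and 9 bases before it in Psmb6.
Psmb5: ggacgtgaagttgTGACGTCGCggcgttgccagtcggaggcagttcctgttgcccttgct
Psmb6: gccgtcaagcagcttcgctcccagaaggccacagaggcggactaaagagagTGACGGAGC

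Counted by gene, 9 of 14 regulatory particle genes with a window held the ETS site, and all 9 rose. Of the 5 without it, Psmc4, Psmc5 and Psmd1 rose, while Psmd8 and Psmd14 are the subunits that did not pass. Over all genes tested 26.1% were called higher. The share called higher among all tested genes with an ETS site was not counted, so these counts do not relate the site to a rise. In the core, 10 of 11 genes with a window lacked the ETS site, and these 10 rose as well. Psmb1, the core subunit that did not rise, had no window. All 11 core genes with a window rose, so the core cannot relate any motif to a rise. A match describes letters in a window and is no evidence of binding, and no test was made of the shares.

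**Figure D5:**
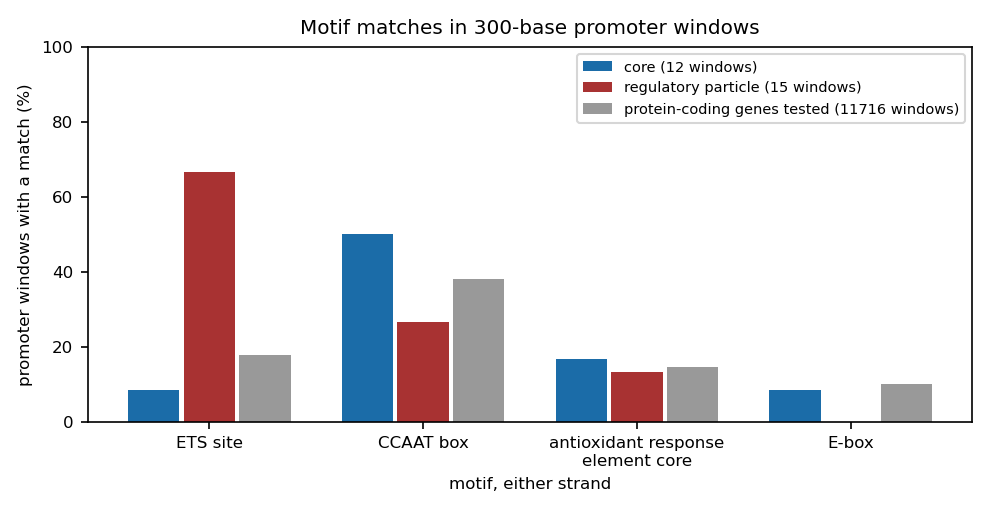
Share of promoter windows with a match to each of 4 motifs on either strand, for core, regulatory particle and all tested protein-coding genes. The ETS site matched 66.7% of regulatory particle windows, 8.33% of core windows and 17.8% of windows of tested genes.

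Other genes of the pathway are given as background to the members and were not tested against them. Of 47 listed genes, including the immunoproteasome, 46 were tested, of which 16 rose and 5 fell, with a median log2 fold change of 0.08, where 26.1% of all genes were called higher and 25.7% lower. Adrm1, the ubiquitin receptor of the regulatory particle that lies outside the name rule, had 3481, 4202 and 4686 normalized counts in Whsc1-KO libraries and 2605, 2983 and 3394 in WT libraries. It rose by 0.47 without overlap (adjusted p 0.000406, limma). Pomp, which helps assemble the core, rose by 0.29 (adjusted p 0.0103), a call lost without Whsc1-KO replicates 4 to 6, at 0.09 (adjusted p 0.217). Shfm1, the smallest lid subunit, had -0.09 (adjusted p 0.416), and -0.26 (adjusted p 0.0351) without those replicates.

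The p97 unfoldase extracts ubiquitylated proteins and hands them to the proteasome. Of 6 genes for p97 and its cofactors 4 were called higher, where 26.1% of all genes were. Vcp, which encodes p97, had 25232, 29220 and 31118 normalized counts in Whsc1-KO libraries and 17721, 18900 and 23348 in WT libraries. It rose by 0.57 without overlap (SE 0.072, adjusted p 5.66e-05, limma), and its cofactors Nploc4, Nsfl1c and Ufd1l rose by 0.45, 0.33 and 0.26, the call of Ufd1l being lost without Whsc1-KO replicates 4 to 6 (0.18, adjusted p 0.0641). Of 6 proteasome-associated genes 3 rose and 1 fell, where 26.1% of all genes were called higher and 25.7% lower. The thioredoxin-like Txnl1 rose by 0.44 and the deubiquitinases Uchl5 and Usp14 by 0.39 and 0.36. The calls of Uchl5 and Usp14 were lost without Whsc1-KO replicates 4 to 6, at 0.16 and 0.17 (adjusted p 0.291 and 0.313). AI314180, the mouse gene for the proteasome scaffold Ecm29, fell by 0.31, with 6436, 6947 and 7425 in Whsc1-KO libraries and 7664, 8421 and 9491 in WT libraries, without overlap (adjusted p 0.000863).

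Of 8 genes that control proteasome transcription, 1 passed, as higher, where 26.1% of all genes were called higher. Ngly1, the glycanase that activates Nfe2l1, had 1760.4, 1907 and 2268 normalized counts in Whsc1-KO libraries and 1241, 1406 and 1779 in WT libraries and rose by 0.43 (adjusted p 0.00102, limma). Nfe2l1 had a log2 fold change of -0.14 (adjusted p 0.117), Nfe2l2 0.24 (adjusted p 0.0803) and Maff -0.55 (adjusted p 0.103), so these 3 factors missed the threshold by limma, but whether they pass depended on the tool and the libraries. DESeq2 on recovered reads called Nfe2l2 higher (0.26, adjusted p 0.0443) and Maff lower (-0.67, adjusted p 0.029), and edgeR called Maff lower (adjusted p 0.0475). Nfe2l2 was 0.44 (adjusted p 0.000344) within replicates 4 and later and -0.006 (adjusted p 0.967) without Whsc1-KO replicates 4 to 6. Nfe2l1 passed with library weights alone (-0.18, adjusted p 0.0384). Among 11 genes of ubiquitin and its shuttles 4 rose and 2 fell, where 26.1% of all genes were called higher and 25.7% lower. Uba1, the main ubiquitin-activating enzyme, rose by 0.39 and the shuttle factors Ubqln4 and Rad23b by 0.38 and 0.32, the call of Rad23b being lost without Whsc1-KO replicates 4 to 6 (0.19, adjusted p 0.0596). The fusion gene Rps27a, which supplies ubiquitin with a ribosomal protein, fell by 0.49, with 38650 to 54024 in Whsc1-KO libraries and 54240 to 66491 in WT libraries.

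Of 7 peptidases that trim proteasome products 2 were higher and 2 lower, shares near the 26.1% and 25.7% of all genes. Thop1, a cytosolic oligopeptidase, had 1364, 1680 and 2109 normalized counts in Whsc1-KO libraries and 785, 842 and 1041 in WT libraries and rose by 0.9 (SE 0.102, adjusted p 2.46e-05, limma). Lap3, a leucine aminopeptidase, rose by 0.78. Erap1, which trims peptides in the endoplasmic reticulum, fell by 0.37, with 3736, 3928 and 4349 in Whsc1-KO libraries and 4765, 4988 and 5639.6 in WT libraries, and Nrd1 fell by 0.14. The 2 genes of nuclear import of proteasomes, Ipo9 and Akirin2, had log2 fold changes of 0.21 (adjusted p 0.0545) and 0.001 (adjusted p 0.995). Ipo9 passed by edgeR (0.22, adjusted p 0.0424) and DESeq2 (0.22, adjusted p 0.0356) and was 0.45 (adjusted p 8.71e-05) within replicates 4 and later, but -0.05 (adjusted p 0.708) within replicates 1 to 3.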

How the data were processed

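Poly-A RNA of 6 Whsc1-KO and 7 WT libraries was analysed from the table of normalized counts that the authors deposited. The submitters' processing notes name the builds GRCm38 and mm9 and the tools DESeq2 1.10.1, RSEM 1.2.28 and STAR 2.5.1b. Each deposited signal value is a count scaled by its library's size factor. Dividing by the smallest step of a library gave whole reads, within a tolerance of 0.05, with totals of 38881663 to 53019516. The step of WT replicate 3 is close to 1 read. The authors' deposited comparison table gives a log2 fold change and a p-value per gene, with a score per gene per the file headers; its gene ontology and pathway files were not used.

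Tests were two-sided, by limma 3.58.1 with a trend on log2(normalized count + 1), over genes with 10 or more normalized counts in at least 6 libraries, with Benjamini-Hochberg adjustment over all 13947 and a threshold of 0.05. Since the values are not raw counts, edgeR 4.0.16 and DESeq2 1.42.0 on recovered reads served as alternatives. R 4.3.3 and Python 3.11.15 with pandas 2.3.3 and matplotlib 3.10.9 were used. Members, gene lists and tests were chosen with earlier results of these data known. Named are Whsc1, every member, the 3 immunoproteasome subunits and up to 4 genes with the smallest adjusted p from each pathway list. Exon lengths and spans come from GENCODE M21 on GRCm38, and promoters from RefSeq. Fold changes are Whsc1-KO over WT. The fits were also run on simulated counts, drawn from the WT means and spread, with some genes changed by known folds. That simulation held no difference between Whsc1-KO replicates 1 to 3 and 4 to 6, so it does not test the fits under such a split. No library duplicated another of its group: the smallest chi-square per gene between any pair was 26.8.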

Additional observations from a re-analysis of the deposited data

Results flagged for a closer look

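A library far from the others of its group was found in 5 of 90 combinations of member and group (5.56%), where chance gives about 1 in 20. In Whsc1-KO libraries, Psmg4 was highest in replicate 2, with 480 normalized counts against 404 to 418 in the other 5. Psmb1 was lowest in Whsc1-KO replicate 4, with 7232 against 7583 to 7783 in the other 5. The other 3 were lid subunits that were highest in WT replicate 3. Psmd7 had 3763 there and 2750.5 to 2963 in the other 6 WT libraries, Psmd12 had 3227 and 2592 to 2842, and Psmd11 had 4961 and 4065 to 4373. Their calls held without WT replicate 3.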

How the results depend on the processing

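Counts of 36 members higher and 2 lower, 13 core and 15 regulatory particle subunits higher held within 1.5 times under edgeR, DESeq2, TMM and upper-quartile scaling, pseudocounts of 0.5 and 5, no filter, a threshold of 0.01, library weights, a sex score, and without any single library (35 to 36 higher, 2 lower, 13 and 15). They moved in sets of libraries: within replicates 1 to 3, 3 members were higher and 1 lower, with 2 core and 1 regulatory particle subunits higher, and 1 member was lower both without Whsc1-KO replicates 4 to 6 and with WT replicate 3 left out as well. Fewer libraries enter these fits, and the cause was not tested. Core minus regulatory particle, -0.026, was -0.07 with library weights, 0.027 without Whsc1-KO replicates 4 to 6, 0.026 with WT replicate 3 left out as well, and -0.044 to -0.008 without single libraries.

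The replicate numbers did not pair the libraries: same-numbered deviations correlated at -0.108 to 0.206, and 2 of 6 Whsc1-KO libraries correlated best with their own number. With the replicate block 35 members were higher and 2 lower, Akirin2 was -0.005, and the calls of Psme2, Uchl5 and Usp14 were lost (adjusted p 0.0899, 0.0682 and 0.0657). Calls were gained for Nfe2l2 with DESeq2, the sex score and library weights, for Maff with DESeq2, edgeR and library weights, for Ipo9 with DESeq2, edgeR, TMM, the sex score and library weights, and for Nfe2l1 and Psmd14 with library weights.

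Genes without a call that changed sign in an alternative had these log2 fold changes there, none of these values past the threshold. Psmd14 was -0.076 with WT replicate 3 and Whsc1-KO replicates 4 to 6 left out, -0.078 within replicates 1 to 3 and -0.092 without Whsc1-KO replicates 4 to 6. In the same order, Psmb9 was 0.016, 0.018 and 0.028, and Akirin2 -0.098, -0.175 and -0.116. Within replicates 1 to 3, Psmg1 was -0.052, Psme1 0.026, Psmb1 -0.002 and Ipo9 -0.051. Nfe2l2 was -0.006 without Whsc1-KO replicates 4 to 6. Within replicates 4 and later, Psmg4 was -0.028, Psmg2 0.092, Psmb10 -0.104 and Shfm1 0.077. Library weights gave Psmg2 0.052, Psmb10 -0.083 and Shfm1 0.006. The sex score gave Psmb10 -0.033. Upper-quartile scaling gave Psmb1 -0.013, Psmb10 -0.028 and Akirin2 -0.032. Without single libraries, Psmb9 ranged from -0.063 to 0.011, Psmb10 from -0.038 to 0.051, Psmg2 from -0.053 to 0.029 and Akirin2 from -0.039 to 0.03.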

Other observations

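Levels per length, as normalized counts per kb of exon, ordered the classes as follows, with no test. The median over the 14 core subunits was 2138 per kb in Whsc1-KO and 1666 per kb in WT libraries, between Psmb7, at 1350.0 per kb in Whsc1-KO and 981 per kb in WT libraries, and Psma6. Over the 17 regulatory particle subunits it was 1648 per kb in Whsc1-KO and 1317 per kb in WT libraries. The 7 assembly chaperones were lower, at a median of 474 per kb in Whsc1-KO and 477 per kb in WT libraries, from Psmd9, at 164 per kb in Whsc1-KO and 120.2 per kb in WT libraries, to Psmg4, the highest of them in WT, at 763 per kb in Whsc1-KO and 718 per kb in WT libraries. The activator subunit Psme1 was at 3954 per kb in Whsc1-KO and 4133 per kb in WT libraries, the highest activator in WT. Exon lengths are unions over annotated transcripts and can exceed the transcript that B cells use, which lowers a level per kb.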
